A study of Homo sapiens with 20 samples.

Results

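The genes described here are those whose transcripts fell with interferon gamma (IFNγ) in every wild-type (WT) clone of U2OS, a human osteosarcoma cell line. IFNγ is a cytokine that signals through a cell-surface receptor and JAK kinases, and it is best known for switching on antigen presentation and antiviral genes. It is also known to lower transcripts, those of fibrillar collagens among them. RNA-seq was done in 5 WT clones and 5 ZBTB48 knockout (KO) clones, with an untreated library and a library treated with IFNγ (250 U/ml for 24 h) from each clone, which gave 20 libraries, and the study asked how the loss of ZBTB48, a zinc finger protein that binds telomeric DNA and promoters, alters the response to IFNγ. All groups share the U2OS background, and each library comes from a clone, so differences between clones are part of the spread.

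Members were selected on the WT libraries alone. Counts were divided by the library total and scaled to CPM (counts per 1e6 counts). A gene was a member if its mean CPM in the 5 untreated WT clones was 1 or more and if log2((CPM with IFNγ + 0.5)/(CPM without + 0.5)) lay below -0.58 in each of the 5 WT pairs. Genes whose symbols start with FOS, JUN, EGR, HSP, DNAJ, COL, TRIM, ZBTB or LINC, or contain -AS, were left out. The rule found 542 genes among 43366 in the table, of which 15114 had the required mean CPM. A further 24 genes met the numbers and were left out by name, 7 of them HSP genes and 4 COL genes. In the other direction, 526 genes with the required mean CPM rose by more than the same ratio in every WT clone. No name was left out of that count, and the like count of falls is 566. Genes under 1 CPM in the untreated WT clones were not counted, so genes switched on from a low level, such as CXCL9, CXCL10 and CXCL11, are missing from the 526. The members held between 2.42% and 2.71% of all counts in the untreated WT libraries and between 1.15% and 1.35% after IFNγ. The WT values are therefore a description. The libraries labelled KO took no part in the choice, and the response to IFNγ in them is the test given below.

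Several libraries need a remark before the results. ZBTB48 transcripts were at 8.03 to 9.44 CPM in the untreated WT clones and at 1.29, 1.94, 11.3, 3.12 and 4.06 CPM in untreated KO replicates 1 to 5, so the library labelled KO replicate 3 stood above every untreated WT library. It did so again after IFNγ, at 15.8 CPM against 8.80 to 11.6 CPM in the treated WT clones. VWA5A, whose transcripts are known to depend on ZBTB48, was low in all of them, at 0.367, 0.0607, 0.625, 0.658 and 0.435 CPM in untreated KO replicates 1 to 5 against 7.77 to 24.7 CPM in the WT clones, so in KO replicate 3 the levels of ZBTB48 and VWA5A transcripts pointed different ways. The group is called the libraries labelled KO. The treated and untreated libraries of KO replicates 4 and 5 did not resemble their own partners. Their deviations from the group means correlated at r = 0.02 and 0.09 across 15121 genes, while untreated replicate 4 correlated at 0.76 with treated replicate 5 and untreated replicate 5 at 0.84 with treated replicate 4. The main results are therefore also given with each of these libraries left out and, for paired values, with the treated libraries of replicates 4 and 5 exchanged. Paired p values of single genes use the pairing as labelled. Library totals ran from 46652288 to 72952859 counts. The interferon response itself was present in all treated libraries, since 15 interferon-induced genes summed to between 9570 and 13181 CPM with IFNγ and to between 387 and 529 CPM without. FN1 was the highest of 8 mesenchymal markers, COL1A2 was under 1 CPM in every group, and all 7 haematopoietic markers stayed under 1 CPM.

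To show what the starts of such genes look like, the promoters of the 4 members with the largest mean fall in WT clones and an entry in the promoter table are printed 5′ to 3′ on the strand of the gene, from 250 bases before to 50 bases after the RefSeq start (GRCh38.p14). Capitals mark matches to the AP-1 motif TGANTCA or to the GC box GGGCGG, on either strand. The CD180 window is chr5:67196750-67197049 on the minus strand, FMNL2 chr2:152334924-152335223 on the plus strand, EPHB3 chr3:184561535-184561834 on the plus strand and CCL24 chr7:75823323-75823622 on the minus strand.
CD180: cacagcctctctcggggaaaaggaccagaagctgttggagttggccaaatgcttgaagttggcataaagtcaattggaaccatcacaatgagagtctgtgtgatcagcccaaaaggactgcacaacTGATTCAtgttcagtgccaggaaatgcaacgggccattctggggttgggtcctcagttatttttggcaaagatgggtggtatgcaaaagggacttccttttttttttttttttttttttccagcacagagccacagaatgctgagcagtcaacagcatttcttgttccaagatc
FMNL2: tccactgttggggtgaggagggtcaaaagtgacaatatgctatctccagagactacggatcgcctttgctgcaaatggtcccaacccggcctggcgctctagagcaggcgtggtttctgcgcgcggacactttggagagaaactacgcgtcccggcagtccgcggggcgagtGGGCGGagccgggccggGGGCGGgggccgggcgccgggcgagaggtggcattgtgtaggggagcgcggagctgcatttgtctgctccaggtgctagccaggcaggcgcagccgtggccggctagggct
EPHB3: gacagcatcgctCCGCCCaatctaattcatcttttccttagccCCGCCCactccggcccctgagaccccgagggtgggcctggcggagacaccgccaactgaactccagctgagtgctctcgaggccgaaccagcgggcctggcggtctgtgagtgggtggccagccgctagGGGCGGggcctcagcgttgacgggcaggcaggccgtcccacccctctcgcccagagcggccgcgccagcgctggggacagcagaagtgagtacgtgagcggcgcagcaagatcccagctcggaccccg
CCL24: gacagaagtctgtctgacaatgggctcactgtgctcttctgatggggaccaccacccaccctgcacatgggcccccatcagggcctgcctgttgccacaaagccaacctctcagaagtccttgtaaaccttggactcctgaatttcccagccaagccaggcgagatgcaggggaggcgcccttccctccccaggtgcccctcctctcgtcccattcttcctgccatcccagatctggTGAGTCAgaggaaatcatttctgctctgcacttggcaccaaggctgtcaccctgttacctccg
The windows of CD180 and CCL24 hold 2 and 4 CpG dinucleotides and each has an AP-1 match, 124 and 13 bases before the start. Those of FMNL2 and EPHB3 hold 27 and 26 CpG and have GC boxes. A motif match is a description of the letters only.

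Promoter windows of 300 bases were found for 413 of the 542 members and for 11648 of the 15114 expressed genes. The median GC content was 66.7% in the members and 65.3% in all expressed genes, and 19.9% of member promoters against 13.4% of all held under 10 CpG. GAAANNGAA, the core of the interferon-stimulated response element, was in 2.66% of member promoters and in 6.25% of all. AP-1 matches were in 6.30% against 5.07%, the TEAD motif GGAATG in 13.6% against 11.2%, the E-box CACGTG in 7.51% against 9.79%, and TATAAA in 7.26% against 6.14%. GAANNTTC, 2 inverted units of the heat-shock element, was in 5.57% against 4.88%, the GC box in 70.5% against 68.4%, and TTAGGG, the telomeric repeat that ZBTB48 binds, in 8.47% against 8.36%. Of 535 members with a RefSeq biotype, 93.6% were protein-coding and 5.05% were lncRNA genes, against 87.3% and 10.2% of the expressed genes.

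In the WT clones the falls, which the rule required in all 5, were moderate. The median over the members was -1.13, -0.89, -0.90, -1.13 and -0.98 (log2 ratio) in WT replicates 1 to 5, which are clones WT1, WT3, WT4, WT5 and WT6, against -0.11 to -0.05 over all expressed genes. Averaged over the 5 clones, 294 members (54.2%) lay below -1 and 7 lay below -2. The least lowered member was VCL, which encodes vinculin of focal adhesions, at a mean of -0.65. VCL, VAX2 and STARD10 sat just inside the threshold, with a least lowered pair between -0.5809 and -0.5803, and GPLD1, SERINC2 and CAVIN4 just outside it, with -0.5799 to -0.5791.

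**Figure D1:**
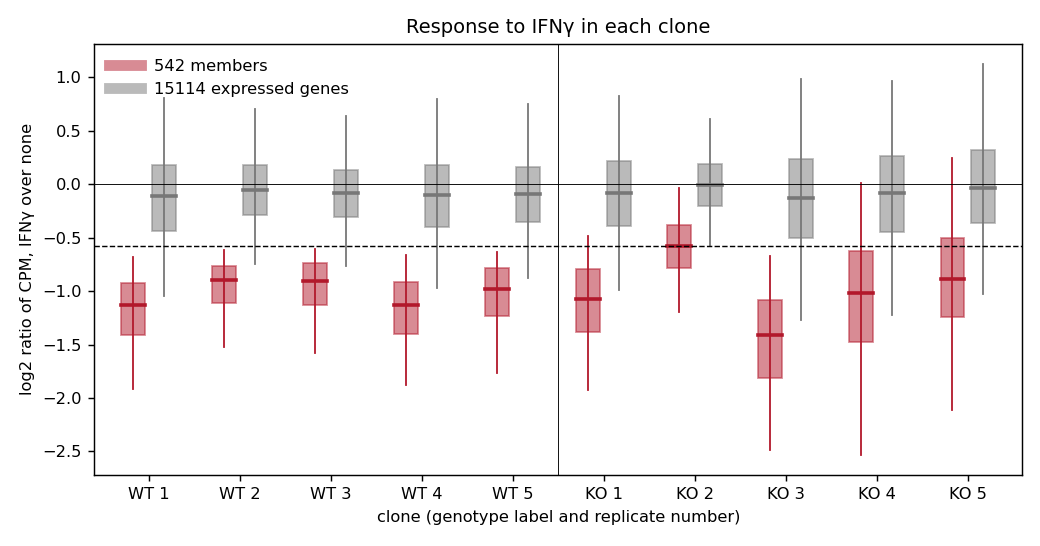
Log2 ratio of CPM with IFNγ over CPM without, in each of the 10 clones, for the 542 members and for the 15114 expressed genes. Thick lines are medians, boxes the middle 50% of genes, thin lines the range from the 5th to the 95th percentile, and the dashed line the threshold of -0.58 that chose the members in WT clones. Every median of the members in the libraries labelled KO lies below that of all expressed genes, and KO 2 has the smallest, at -0.58.

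The members were also lower with IFNγ in the libraries labelled KO, which had no part in choosing them. Their median log2 ratio was -1.08, -0.58, -1.41, -1.02 and -0.89 in KO replicates 1 to 5. Below -0.58 lay 489, 272, 525, 418 and 385 of the 542 members, or 90.2%, 50.2%, 96.9%, 77.1% and 71%, against 15.8%, 4.90%, 21.7%, 18.9% and 14.6% of all expressed genes. KO replicate 3 had the strongest and KO replicate 2 the weakest response of the members. The 15 interferon-induced genes summed to 9570, 10513, 12489, 12393 and 10825 CPM in treated KO replicates 1 to 5. A relation between these sums and the response of the members was not tested. All 542 members had a mean KO ratio below 0. In all 5 KO pairs as labelled, 154 members (28.4%) lay below -0.58, against 1.42% of all expressed genes. With the treated libraries of replicates 4 and 5 exchanged, it was 225 (41.5%) against 2.17%. The mean WT and KO ratios correlated across the 542 members at r = 0.77 (Spearman 0.70), which is a description across genes that share libraries. The SD over clones was larger among the KO pairs than among the WT pairs for 519 members (95.8%), with medians of 0.51 and 0.21 on the log2 scale. With replicates 4 and 5 exchanged it was larger for 492 (90.8%), with a KO median of 0.42. The rule required all 5 WT ratios of a member to lie below -0.58 and set no condition on the KO pairs. The 2 spreads are therefore not a comparison of the genotypes, and the same share was not taken over all expressed genes.

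In the test of the 5 treated against the 5 untreated libraries labelled KO (edgeR quasi-likelihood), 198 of the 541 members tested (36.6%) were called lower at an adjusted p under 0.05, and none was called higher. Over all 19385 genes tested, 479 (2.47%) were called lower and 1049 (5.41%) higher. Among genes that met the mean CPM of the rule, 3.12% were called lower. The members thus made up 41.3% of all genes called lower. The median log2 fold change of the 541 members was -0.998 and of all genes tested -0.03, with the members between -3.90 and -0.35. At an unadjusted p under 0.05 there were 416 members. The stricter cut-offs of the study, an adjusted p under 0.01 and a fall of more than 2-fold, were passed by 42 members (7.76%) of 50 genes in all (0.258% of those tested). In 180 members (33.3%) every treated KO library lay below every untreated one, against 3.48% of all genes tested. Members that were called had a median fold change of -1.08 and a median standard error (SE) of 0.23, and members that were not called had -0.93 and 0.40.

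Because each clone gave a treated and an untreated library, the clone can be taken as a block. With this replicate block as labelled, 443 members (81.9%) were called lower against 9.95% of all genes, and with replicates 4 and 5 exchanged 517 (95.6%) against 18.8%. DESeq2 without the block called 330 (61.0%) against 5.47%. The number of calls also depended on the clones included. Leaving out KO replicate 1, 3, 4 or 5 gave 80, 80, 59 and 79 members, against 0.793%, 0.723%, 0.552% and 0.753% of all genes, and leaving out KO replicate 2 gave 276, against 3.84%. With replicates 4 and 5 both left out, edgeR called 0 members and 4 genes in all, while 290 members had an unadjusted p under 0.05 and the median fold change of the members was -1.03.

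The share called lower was smallest at low expression, among the members and among all genes tested. Of the 105 members under 5 CPM in untreated libraries labelled KO, 18.1% were called lower, with a median SE of 0.51, against 0.786% of all genes tested. Between 20 and 50 CPM it was 46.6% of 118 members with a median SE of 0.26, against 3.48%. At 100 CPM or more it was 43.5% of 46 members with 0.25, against 3.35%. The median fold change was -1.24 in the lowest class and -0.86 in the highest.

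The 12 members with the lowest adjusted p in the libraries labelled KO were called lower without overlap of the groups. CCDC80, which encodes a secreted matrix protein, was at 78.1, 83.5, 92.4, 70.6 and 90.2 CPM in untreated KO replicates 1 to 5 and at 36.7, 40.2, 25.6, 32.9 and 32.4 CPM after IFNγ. No treated library reached an untreated one, and the log2 fold change was -1.31 (SE 0.14, edgeR adjusted p = 0.000223). In the WT clones it fell from 94.5 ± 36.1 to 39.4 ± 16.5 CPM (mean ± SD, n = 5). CCDC80 is also the single member among 22 expressed genes of a YAP and TEAD target list.

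GPC1, the heparan sulfate proteoglycan glypican-1, was at 826, 596, 630, 703 and 632 CPM in the untreated and at 378, 327, 365, 358 and 324 CPM in the treated libraries labelled KO. The groups were far apart, with a log2 fold change of -0.95 (SE 0.11, edgeR adjusted p = 0.000569). Other members belong to the synthesis of sulfated sugar chains. GLCE, the epimerase of heparan sulfate, was at 65.6 ± 13 CPM untreated and 32.2 ± 5.51 CPM treated (SD, n = 5, log2 fold change -1.03, edgeR adjusted p = 0.00540), and CHST6, a sulfotransferase that acts on keratan sulfate, had -1.29 (edgeR adjusted p = 0.00711). HS6ST1, which adds 6-O-sulfate, had -0.84 and did not pass (edgeR adjusted p = 0.115). Of the 54 tested genes of heparan and chondroitin sulfate synthesis, 7 were called lower and none higher. In this list 4 of 45 expressed genes (8.89%) were members, against 3.59% of all expressed genes.

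MMP15, a membrane-bound matrix metalloproteinase, was at 30.6, 27.8, 21.9, 23.8 and 16.4 CPM untreated and at 8.71, 9.02, 4.69, 5.75 and 7.41 CPM with IFNγ in KO replicates 1 to 5. The groups did not overlap, and the log2 fold change was -1.76 (SE 0.23, edgeR adjusted p = 0.00112). FGFR2, a receptor for fibroblast growth factors, was at 20.5, 12.5, 17.6, 16.9 and 18.7 CPM untreated and at 5.31, 5.57, 6.39, 8.58 and 6.06 CPM treated. Its log2 fold change was -1.44 (SE 0.19, edgeR adjusted p = 0.00118), again without overlap. DEPP1, a target of FOXO factors, fell by 2.16 on the log2 scale (SE 0.29, edgeR adjusted p = 0.00136). PLIN3, a coat protein of lipid droplets, fell from 162 ± 13.1 to 86.4 ± 8.05 CPM (SD, n = 5, edgeR adjusted p = 0.000405). TNFSF9, the ligand of the co-stimulatory receptor 4-1BB, had -1.03 (edgeR adjusted p = 0.00158). PXYLP1, a phosphatase that acts on a xylose of the proteoglycan linker, NT5DC2, DENND11 and AHDC1 were also among the 12 members with the lowest adjusted p, with log2 fold changes of -0.98, -1.45, -1.002 and -1.18. NT5DC2 overlaps STAB1 on the opposite strand, and the strand setting of the counting is not stated. Leaving out KO replicates 4 and 5 together ended each of these calls, as it did every other call of a member.

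**Figure D2:**
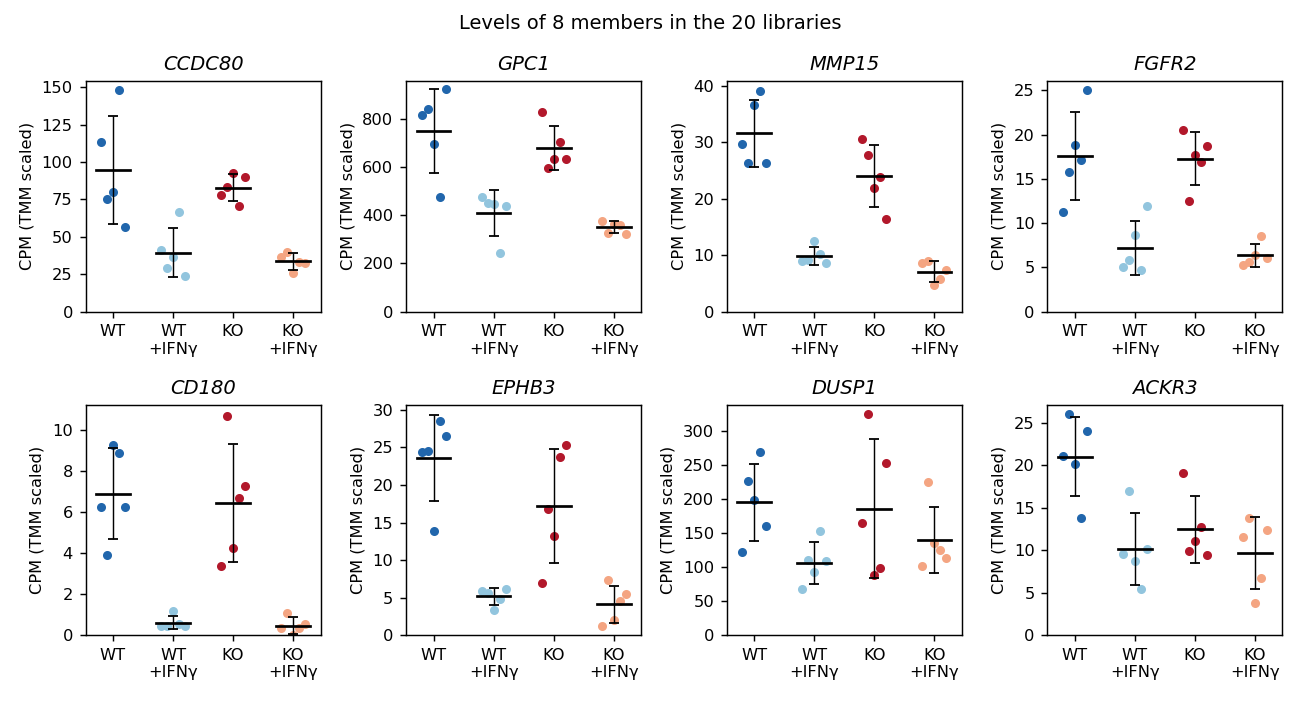
CPM after TMM scaling of 8 members in the 20 libraries, with 5 points per group, a horizontal line at the mean and bars of 1 SD. In CCDC80, GPC1, MMP15, FGFR2 and CD180 no treated library labelled KO reaches an untreated one, whereas in EPHB3, DUSP1 and ACKR3 the groups overlap.

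The largest mean falls in the WT clones were those of CD180, FMNL2 and LOC107984960. CD180, a surface receptor related to toll-like receptors and known from B cells, was at 6.24, 3.90, 9.24, 8.88 and 6.25 CPM in untreated WT replicates 1 to 5 and at 0.435, 0.439, 1.18, 0.556 and 0.470 CPM after IFNγ. In the libraries labelled KO it was at 3.38, 10.7, 4.24, 6.68 and 7.28 CPM untreated and at 0.367, 1.11, 0.0378, 0.343 and 0.534 CPM treated, with a log2 fold change of -3.74 (SE 0.65, edgeR adjusted p = 0.00606). The treated libraries labelled KO all lay below the untreated ones, as did those of the WT clones, on which CD180 was chosen. FMNL2, a formin that builds actin filaments, was at 16.2, 3.08, 11.4, 40.4 and 11.6 CPM untreated and at 1.95, 1.10, 0.888, 0.703 and 5.70 CPM treated in KO replicates 1 to 5. Its groups overlapped through the low untreated replicate 2 and the high treated replicate 5, and the log2 fold change was -3.002 (SE 0.74, edgeR adjusted p = 0.0326). LOC107984960 on chromosome 1 had -3.90 (SE 0.90, edgeR adjusted p = 0.0237), and DESeq2 gave it no adjusted p.

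CCL24, the eosinophil chemokine eotaxin-2, went from 8.17 ± 2.98 to 1.73 ± 1.16 CPM in the libraries labelled KO (SD, n = 5, log2 fold change -2.24, edgeR adjusted p = 0.0112), and from 8.05 ± 3.05 to 1.69 ± 1.13 CPM in the WT clones. MMP13, collagenase-3, varied widely between clones. It was at 2.86, 0.617, 1.06, 56.0 and 8.34 CPM in the untreated WT clones and between 0.648 and 9.19 CPM in the untreated libraries labelled KO, and its KO fold change was -3.09 (SE 0.73, edgeR adjusted p = 0.0266). FAM13C had -1.62 (edgeR adjusted p = 0.0418) and overlaps other genes on the opposite strand. KIAA1210, GAS1, KRT14 and TRPA1 also belong to the 12 largest WT falls, but did not pass in the libraries labelled KO, with log2 fold changes of -2.12, -1.43, -2.54 and -1.90 and edgeR adjusted p of 0.331, 0.198, 0.142 and 0.0509. With the replicate block all 4 passed (edgeR adjusted p = 0.00232, 0.00339, 0.0208 and 0.0397).

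MYCL, a paralogue of the growth regulator MYC, fell in the libraries labelled KO from 12.6 ± 3.70 to 3.65 ± 2.89 CPM (SD, n = 5, log2 fold change -1.79, edgeR adjusted p = 0.0324). MYCL-AS1 lies on its opposite strand. MYCN, also a member and singled out after its values were seen, went from 5.07 ± 1.08 to 1.73 ± 1.21 CPM with a log2 fold change of -1.55 that did not pass (edgeR adjusted p = 0.119). MYC itself rose in the same libraries by 1.78 on the log2 scale (SE 0.36, edgeR adjusted p = 0.0134), from a mean of 148 to 509 CPM.

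**Figure D3:**
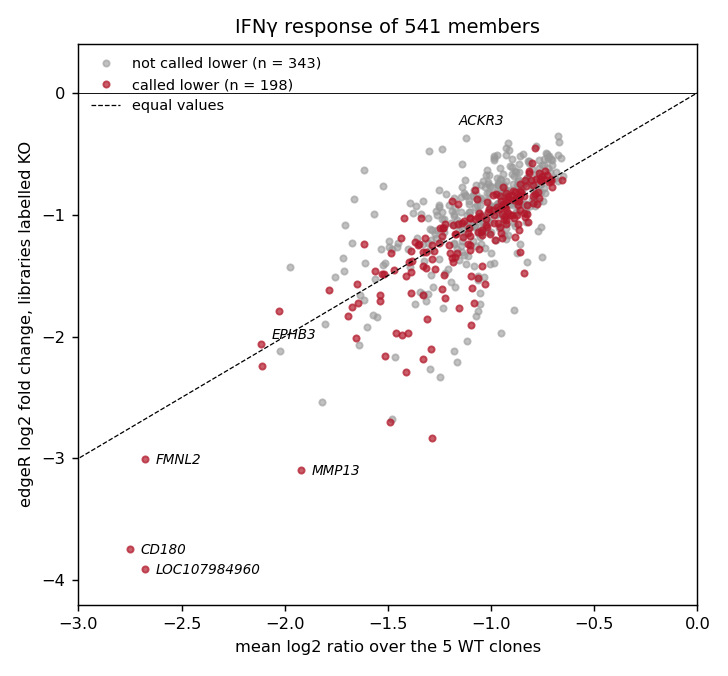
IFNγ response of 541 members: mean log2 ratio over the 5 WT clones, which chose the members and used a pseudocount of 0.5, against the edgeR log2 fold change in the libraries labelled KO, which did not. The 198 called lower are in red and all 541 lie below 0 on the vertical axis. The axes are different measures, so distance from the line of equal values is not a difference between genotypes: on the measure of the horizontal axis FMNL2 was at -2.68 in WT and -2.65 in KO, and MMP13 at -1.92 and -1.77.

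By family, Eph receptors and their ephrin ligands, which signal by contact between neighbouring cells, held 7 members among 18 expressed genes (38.9%). Of 20 genes of the family tested in the libraries labelled KO, 6 were called lower and none higher, and their median fold change was -0.53. The receptor EPHB3 was at 6.95, 16.8, 13.2, 23.8 and 25.3 CPM untreated and at 1.21, 7.32, 2.04, 4.56 and 5.46 CPM treated. Its groups overlapped only through treated replicate 2 and untreated replicate 1, and it fell by 2.06 on the log2 scale (SE 0.50, edgeR adjusted p = 0.0283). EPHB6 had -1.07 (edgeR adjusted p = 0.0132). Among the ligands, EFNB1 had -0.996, EFNA3 -1.18 and EFNA4 -0.89 (edgeR adjusted p = 0.00901, 0.0113 and 0.0308). EPHB4 and EFNA2 had -0.73 and -0.94 and did not pass (edgeR adjusted p = 0.188 and 0.0807), though all 7 members passed with the replicate block. Over all members tested 81.9% passed with that block, and the block counts of the lists below are to be read beside this share. With replicates 4 and 5 exchanged the share was 95.6%, and exchanged counts of the lists are given below where they differ.

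In the Wnt pathway, 8 of 47 expressed genes (17%) were members, 3 of which were called lower. Over the 51 tested genes of the list, 4 were called lower and 1 higher, with a median of -0.30. The ligand WNT5B fell by 1.91 on the log2 scale (SE 0.50, edgeR adjusted p = 0.0412), and its relative WNT5A had -0.94 (edgeR adjusted p = 0.156). Among the receptors, FZD2 fell from 58.5 to 27.5 CPM in the mean (log2 fold change -1.09, edgeR adjusted p = 0.0247), while FZD1 and FZD4 had -0.85 and -0.76 (edgeR adjusted p = 0.208 and 0.238). LGR4, the receptor of R-spondins, had -1.25 (edgeR adjusted p = 0.0488). RNF43, the ubiquitin ligase that removes Frizzled receptors, and PRICKLE2, a planar polarity protein, had -1.08 and -1.09 and did not pass (edgeR adjusted p = 0.526 and 0.0985). With the replicate block 7 of the 8 members were called lower.

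Hedgehog signalling contributed 4 members of 13 expressed genes (30.8%), and 2 of 14 tested were called lower and none higher. SUFU, the inhibitor of GLI factors, was at 36.7 ± 7.83 CPM untreated and 17.1 ± 4.14 CPM treated in the libraries labelled KO (SD, n = 5, log2 fold change -1.10, edgeR adjusted p = 0.00729). SMO, the signal transducer, fell by 0.75 on the log2 scale (edgeR adjusted p = 0.0375), and the co-receptors CDON and GAS1 had -0.81 and -1.43 (edgeR adjusted p = 0.0598 and 0.198). All 4 passed with the replicate block. The target genes GLI1 and PTCH1 were not members and had -0.16 and -0.33 (edgeR adjusted p = 0.740 and 0.561).

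Of the tubulins, the subunits of microtubules, 5 of 19 expressed genes were members (26.3%), and 3 of 21 tested were called lower and 1 higher. TUBA1A was at 406, 488, 444, 597 and 422 CPM untreated and at 164, 309, 129, 160 and 246 CPM treated in KO replicates 1 to 5. The groups did not overlap, with a log2 fold change of -1.23 (SE 0.23, edgeR adjusted p = 0.00917). TUBB3, a beta tubulin best known from neurons, had -1.08 (edgeR adjusted p = 0.0274), and TUBD1 had -0.91 (edgeR adjusted p = 0.0170). TUBA4A and TUBB4A had -0.91 and -1.19 and did not pass (edgeR adjusted p = 0.464 and 0.0633), whereas with the replicate block all 5 members passed. Tubulin genes are alike in sequence, and reads with more than 1 best place were dropped.

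Per kilobase of exon, the most abundant members in untreated WT clones were SPARC, TUBA1A and KPNA2, with 683, 239 and 200 CPM per kb. SPARC, a major non-collagen protein of bone matrix, was at 1379, 3076, 1725, 2197 and 2466 CPM in the untreated and at 675, 2236, 627, 1368 and 1220 CPM in the treated libraries labelled KO. Each clone's treated library was below its untreated one, but the clones differed so much that the groups overlapped (log2 fold change -0.82, SE 0.34, edgeR adjusted p = 0.175, and 0.00472 with the replicate block). KPNA2, an importin for nuclear proteins, fell from 494 ± 82.2 to 276 ± 58.3 CPM (SD, n = 5, log2 fold change -0.84, edgeR adjusted p = 0.0105).

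Matrix proteases of the ADAM, ADAMTS and MMP families gave 8 members of 47 expressed genes (17%), among which MMP13 and MMP15 were called lower. ADAMTS12 and ADAM12 had -1.66 and -1.51 (edgeR adjusted p = 0.125 and 0.0869), and ADAMTS2, ADAM22, ADAMTS15 and MMP24 lay between -0.98 and -0.71. With the replicate block all 8 were called lower, against 81.9% of all members. Over the 53 tested genes of the list 3 were called lower and 2 higher without the block. ADAMTS12 was at 125 to 178 CPM in the untreated WT clones and at 55.1 to 348 CPM in the untreated libraries labelled KO, and with the replicate block its edgeR adjusted p was 0.000526. Integrins and laminins gave 3 of 30, and none of these passed. ITGA8 and ITGA11 had edgeR adjusted p of 0.240 and 0.516, and all 3 passed with the replicate block. Over the 33 tested genes of that list 1 was called lower and 1 higher without the block.

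Cadherins and protocadherins, which join cells to each other, held 11 of 63 expressed genes (17.5%). The large cadherins CELSR2 and DCHS1 fell by 0.97 and 0.58 on the log2 scale (edgeR adjusted p = 0.0245 and 0.0314). The other 9, FAT3, CDH24 and 7 clustered protocadherins, lay between -1.33 and -0.65 and did not pass. With the replicate block 9 of the 11 were called lower, and with replicates 4 and 5 exchanged all 11. The PCDHA genes share exons with each other, so counts of PCDHA6, PCDHA12 and PCDHAC1 are uncertain. Over the 88 tested genes of the family 2 were called lower and 1 higher, and the median fold change was -0.58.

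Ion channels gave 10 of 80 expressed genes (12.5%), of which 3 were called lower. The auxiliary subunits SCN2B and CACNG7 were among them (log2 fold changes -1.31 and -0.91, edgeR adjusted p = 0.00681 and 0.0122). The pore-forming CACNA1G, CACNA1D, KCNF1, KCNG3, KCNH2 and KCNJ8 and the irritant channel TRPA1 lay between -1.90 and -0.75 and did not pass. With the replicate block 9 of the 10 were called lower, and with replicates 4 and 5 exchanged all 10. Over the 107 tested genes of the list 5 were called lower and 4 higher without the block. Besides FGFR2, the receptor tyrosine kinases FGFR3, NTRK2 and ERBB3 were members, with -1.34, -1.10 and -0.86 (edgeR adjusted p = 0.0516, 0.410 and 0.293). With the replicate block 2 of these 4 receptors were called lower, and with replicates 4 and 5 exchanged all 4. Over the 35 tested receptors of that list 1 was called lower and 2 higher without the block. Leucine-rich repeat proteins of cell surfaces and synapses gave 9 of 72, of which LRFN1, LRRC4B and LRRC15 were called lower (log2 fold changes -1.37, -0.86 and -1.32). With the replicate block 7 of these 9 were called lower, and with replicates 4 and 5 exchanged all 9. Over the 89 tested genes of that list 6 were called lower and 3 higher without the block. Solute carriers gave 9 of 245 (3.67%), close to the share over all expressed genes, and of 289 tested 11 were called lower and 21 higher. With the replicate block 8 of the 9 members were called lower, and with replicates 4 and 5 exchanged all 9. Among the members SLC40A1, the iron exporter ferroportin, fell from a mean of 42.5 to 16.3 CPM (log2 fold change -1.39, edgeR adjusted p = 0.0197), and SLC26A2, a sulfate transporter, from 105 to 57.5 CPM (-0.87, edgeR adjusted p = 0.0212). Numbered zinc finger genes gave 8 of 482 (1.66%), and of 507 tested 3 were called lower and 34 higher. Of these 8 members 1 was called lower, 3 with the replicate block, and 7 with the block and replicates 4 and 5 exchanged.

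**Figure D4:**
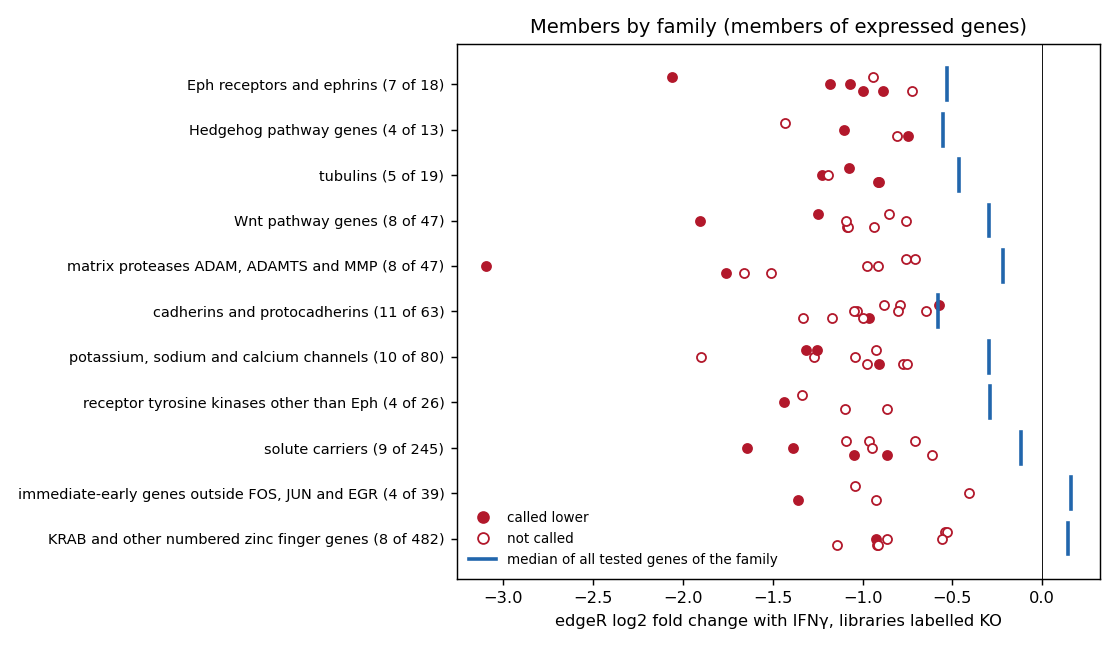
Log2 fold change with IFNγ in the libraries labelled KO for the members of 11 gene families, with filled points for members called lower and open points for those not called, and a blue line at the median of all tested genes of the family. The bracketed numbers are members of expressed genes. The family medians lie between -0.58 for cadherins and 0.16 for immediate-early genes.

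Signalling and transcription lists were mixed. Of the TGF-beta and BMP genes, 4 of 46 were members, and of ID1, ID4, TGFB3 and TGFBR3 the ligand TGFB3 was called lower (log2 fold change -0.89, edgeR adjusted p = 0.0325). Over the 48 tested genes of that list 1 was called lower and 1 higher, with a median of -0.15. ID1, a target of BMP signalling, had -0.83 (edgeR adjusted p = 0.263, and 0.00916 with the replicate block). The Notch ligand JAG2 and the regulator DTX1 were 2 of 22 and did not pass. With the replicate block 1 of them passed, and with replicates 4 and 5 exchanged 2 did. None of the 22 tested genes of that list was called lower or higher without the block. Among 27 expressed p53 target genes 4 were members. BTG2, an antiproliferative gene, fell from 52.4 ± 17.8 to 20.5 ± 4.17 CPM (SD, n = 5, edgeR adjusted p = 0.00733), APAF1, the core of the apoptosome, by 1.11 on the log2 scale (edgeR adjusted p = 0.00666), and the polymerase POLH by 0.96 (edgeR adjusted p = 0.0167), while TP53INP1 had -0.82 (edgeR adjusted p = 0.128). In that list 6 of 27 tested genes were called lower and 2 higher, and CDKN1A and MDM2 had -0.14 and -0.21 (edgeR adjusted p = 0.875 and 0.253). APAF1, POLH and TP53INP1 overlap genes on the opposite strand. A list of homeobox and forkhead factors that also holds T-box and SOX genes gave 8 members of 89, of which HOXC13 was called lower (log2 fold change -1.03, edgeR adjusted p = 0.0279). With the replicate block 4 of these 8 were called lower, and with replicates 4 and 5 exchanged all 8. Over the 108 tested genes of that list 3 were called lower and 6 higher without the block. Of 24 tested genes of the unfolded-protein and ATF4 responses, 18 were called higher and 2 lower, and CREB3L1 was the single member.

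Immediate-early genes outside the names left out by the rule gave 4 members of 39, of which BTG2 was called lower and DUSP1, KLF2 and SGK1 were not (edgeR adjusted p = 0.554, 0.129 and 0.0890). Over the 41 tested genes of that list 2 were called lower and 9 higher, with a median log2 fold change of 0.16. Heat-shock and FOS, JUN and EGR genes had been left out by name. A list of 10 heat-shock genes summed to between 3787 and 4319 CPM in the untreated and between 2380 and 2818 CPM in the treated libraries labelled KO, and 5 of 10 were called lower. HSPA8 was the highest of these. The 11 FOS, JUN and EGR genes summed to between 2074 and 5189 CPM untreated and between 2087 and 2944 CPM treated, with 2 called lower, FOS and FOSB, and 1 higher. Their median log2 fold change was 0.087, and the sum was higher after treatment in KO replicates 3 and 4. The part of these genes in the fall of the members was not tested.

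The weakest responses in the libraries labelled KO were those of NOL4L, ACKR3, GPR137C, DUSP1 and ABLIM1, with log2 fold changes from -0.35 to -0.44. ACKR3, a scavenging receptor for CXCL12, was at 19.1, 9.88, 11.2, 12.8 and 9.42 CPM untreated and at 11.6, 13.8, 3.78, 6.72 and 12.4 CPM treated in KO replicates 1 to 5, and 3 of 5 pairs were lower with treatment, or 4 of 5 with replicates 4 and 5 exchanged. DUSP1, a phosphatase that switches off MAP kinases, was at 165, 326, 88.3, 98.7 and 254 CPM untreated and at 102, 225, 136, 125 and 114 CPM treated, and 3 of 5 pairs were lower under either pairing. In the WT clones ACKR3 went from 21.0 ± 4.66 to 10.2 ± 4.23 CPM and DUSP1 from 196 ± 56.8 to 107 ± 30.9 CPM (SD, n = 5). Whether these responses differ between the genotypes was not tested, since the WT values chose the members.

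Before treatment the members stood at like levels under both labels. The median log2 ratio of the untreated WT mean to the untreated KO mean was 0.10, and 526 members (97.0%) lay within 2-fold. The same share was not taken over all expressed genes, so it cannot be read as particular to the members. Untreated WT levels also had a part in choosing them. The 3 members more than 4-fold higher in WT, singled out after their values were seen, were VWA5A, TMEM63C and PAMR1. VWA5A was at 7.77 to 24.7 CPM in untreated WT clones and at 0.0607 to 0.658 CPM in the untreated libraries labelled KO, and it is the single member that edgeR's filter on low counts removed. TMEM63C was at 10.8 to 17.2 CPM against 0.633 to 4.25 CPM, and it fell further with IFNγ in the libraries labelled KO by 1.54 on the log2 scale, which did not pass (SE 0.65, edgeR adjusted p = 0.179). None was more than 4-fold higher in the libraries labelled KO.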

How the data were processed

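RNA-seq was done in 20 U2OS libraries. Per the paper's methods, the authors aligned stranded mRNA reads to GRCh38 with STAR 2.7.9a, retained uniquely mapped reads and assigned them to RefSeq genes by featureCounts 2.4.0, and they deposited raw counts of 43366 genes without normalization. The strand setting of the counting is not given in the sources used here. Reads shared by near-identical copies are lost by this counting. CPM in the rule used library totals, and printed CPM used edgeR's TMM scaling.

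Treated and untreated libraries labelled KO were compared in R 4.3.3 with edgeR 4.0.16 (filter on low counts, robust quasi-likelihood test, Benjamini-Hochberg adjustment over all genes tested). Standard errors follow from the fold change and the F statistic. The study's methods name DESeq2, and DESeq2 1.42.0 was an alternative. Scripts were tested on simulated data. Members and gene lists were chosen with earlier results of these data known, and the lists of cell-cycle, glycosyltransferase and chemokine genes after the members were seen. Genes named are the 12 members with the largest mean WT fall, the 12 with the lowest KO adjusted p, the 5 with the highest KO fold change, 3 on each side of the threshold, the 3 most abundant per kb, members of lists that hold at least 2, and ZBTB48. Some of these members and a motif are not reported here.

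Replicate numbers are those of the sample titles, and the same number names the same clone with and without IFNγ (WT replicates 1 to 5 are clones WT1, WT3, WT4, WT5 and WT6). Deviations of treated and untreated libraries of a clone correlated at 0.79 to 0.89 in WT and at 0.77, 0.84, 0.69, 0.02 and 0.09 in KO replicates 1 to 5. The treated and untreated groups hold the same clones. The main fit has no term for the clone, so the spread behind its p values includes differences in level between clones. With the replicate block, p values rest on how much the response varied between clones. Total counts of 46652288 to 72952859 per library set how precise a gene with few counts can be.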

Additional observations from a re-analysis of the deposited data

Results flagged for a closer look

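Groups of 5 values were checked for a value far from the other 4, namely the 4 groups of libraries for each of 35 members and for the members' share of counts, and the members' median ratio in the 5 KO pairs. Of these 145 groups 21 had such a value, where chance would give about 7.25 for independent, normally distributed values. Most groups held CPM on a linear scale, the same libraries recurred, and many of the members had been named for large changes. The 21 are therefore a description and not a test. The flagged values of EPHB3 and GPC1 lay below the others in their groups, and all the rest lay above. In treated KO replicate 2, LOC107984960 was at 1.01 CPM, MYCL at 8.72 CPM, KIAA1210 at 9.92 CPM, DEPP1 at 8.83 CPM, DUSP1 at 225 CPM and ABLIM1 at 422 CPM, each above the other 4 treated libraries labelled KO. Untreated KO replicate 2 stood apart for LOC107984960 (15.4 CPM) and GAS1 (30.0 CPM). Other libraries labelled KO that stood apart were treated replicate 5 for FMNL2 (5.70 CPM), untreated replicate 1 for KRT14 (31.9 CPM) and untreated replicate 3 for DEPP1 (31.7 CPM).

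Among WT clones, treated replicate 3 stood apart for CD180 (1.18 CPM) and LOC107984960 (4.62 CPM), and untreated replicate 3 for EPHB3 (13.8 CPM, below the others) and TRPA1 (26.3 CPM). Treated replicate 2 did so for KIAA1210 (2.63 CPM), untreated replicate 4 for MMP13 (56.0 CPM), treated replicate 4 for GPC1 (242 CPM, below the others) and treated replicate 5 for DEPP1 (18.2 CPM). KRT14 stood apart in WT replicate 5, at 44.6 CPM untreated and 19.7 CPM treated.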

How the results depend on the processing

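The number of members called lower in the libraries labelled KO was 198, and 330 with DESeq2, shrunken or not, 443 with the replicate block, 517 with the replicate block and KO replicates 4 and 5 exchanged, 0 with both left out (290 at an unadjusted p under 0.05), and 59 to 276 with each KO clone left out. The same count was 48 of 91 members for a rule with ratios below -1. With each WT clone left out of the rule, 571 to 683 genes were members and 201 to 238 were called. A pseudocount of 2 in the rule left 350 members. The cut-offs that the study applied between WT and KO were passed by 42 members, by 142 with DESeq2 unshrunken and by 81 shrunken. They were passed by 92 with all 20 libraries together, 148 with the replicate block and 266 with replicates 4 and 5 exchanged. Without both of these replicates it was 0, and 2 to 74 with each KO clone left out. Members lower without overlap numbered 180 (33.3%, against 3.48% of all genes tested), and 195 to 327 with each KO clone left out (36.0% to 60.4%, against 4.55% to 8.52%). Across the alternative fits the median fold change of the members stayed between -1.10 and -0.92, except with shrinkage, where it was -0.73. With no gene left out by name, an alternative chosen after seeing the data, 566 were members and 207 were called. For 140 single members, 1552 of 1959 values under an alternative kept direction and call, 174 lost and 232 gained the call, and 1 reversed, the KO log2 fold change of FOXS1, at 0.059 without KO replicate 4 and down to -1.071 without the other clones in turn. In the fits reported here no member was called higher. The median SE of members under 5 CPM was 0.51, and counting error and clone spread were not separated in it.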

Other observations

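Lists of genes chosen after the members were seen are given as a description, since their number of members may come from that choice. Of 58 genes of the G2 and M phases, 11 were members, among them CDC20, KIF20A, KPNA2 and SKP2. In the libraries labelled KO 3 of the 58 were called lower and none higher, where the median log2 fold change was -0.30, and 2 of the 11 members were called lower. Of 78 expressed glycosyltransferases, 14 were members, and 4 of the 14 were called lower. Among 11 chemokines and receptors picked from the members, 3 were called lower. Over all members tested the share called lower was 36.6%.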
